A study of Mus musculus with 15 samples.

Results

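The mitochondrial genome was represented by 15 genes among the 38315 genes measured by bulk RNA sequencing of mouse bone marrow. They were chosen as all genes whose symbol begins with mt-, and they comprised 2 ribosomal RNA (rRNA) genes and 13 protein-coding (mRNA) genes. None of the genes analysed here was a transfer RNA (tRNA) gene, so tRNAs were not analysed here. All 15 genes passed the filter on low values.

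Marrow was compared in 3 groups. The first group was 7 leukaemic marrows (AML, acute myeloid leukaemia) of the genotype NUP98NSD1/FLT3ITD, carrying NUP98-NSD1, a fusion of a nucleoporin gene with a histone methyltransferase gene, and FLT3-ITD, an internal tandem duplication in a receptor tyrosine kinase gene. The reference groups were 4 whole marrows and 4 lineage-negative marrows, both Wild Type. Lineage-negative marrow is depleted of cells that carry surface antigens of mature blood lineages. The mice were described as transgenic, but the promoters, strain, ages and sexes are not given in the sources used here, and neither is the share of leukaemic cells in each AML marrow. Nothing states that samples of a group came from separate litters or batches, so the p-values measure only the spread between these samples. In bulk samples, fewer cells of a type and less RNA per cell cannot be told apart.

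Mitochondrial DNA is a small circular genome that is copied and transcribed inside the organelle by nuclear-encoded enzymes. Both strands are transcribed as long precursors, which are cut mostly at the tRNAs that lie between the other genes, and the products are then translated on mitochondrial ribosomes. Its mRNAs encode core subunits of the respiratory chain and of ATP synthase, and its rRNAs are the RNA of the mitochondrial ribosome. All other proteins of the organelle, including its ribosomal proteins, come from nuclear genes.

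The positions of all 15 genes were the same in the deposited table and in the GENCODE M21 annotation of GRCm38. On the plus strand of chromosome M lay mt-Rnr1 (70 to 1024), the small-subunit rRNA, and mt-Rnr2 (1094 to 2675), the large-subunit rRNA. The complex I subunit genes were mt-Nd1 (2751 to 3707), mt-Nd2 (3914 to 4951), mt-Nd3 (9459 to 9806), mt-Nd4l (9877 to 10173), mt-Nd4 (10167 to 11544), mt-Nd5 (11742 to 13565) and mt-Nd6 (13552 to 14070). Of the 15 genes, mt-Nd6 alone lay on the minus strand. Complex III was represented by mt-Cytb (14145 to 15288), which encodes cytochrome b. Complex IV, cytochrome c oxidase, was represented by mt-Co1 (5328 to 6872), mt-Co2 (7013 to 7696) and mt-Co3 (8607 to 9390). The ATP synthase subunit genes were mt-Atp8 (7766 to 7969) and mt-Atp6 (7927 to 8607).

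Neighbouring mitochondrial genes can share bases, so a read there can belong to either gene. The sequences printed here are GENCODE M21 transcripts on GRCm38, and they are shown because they limit how far some genes can be told apart. In the first 3 lines capitals mark the bases that both genes contain: 43 bases of mt-Atp8 and mt-Atp6, 7 bases of mt-Nd4l and mt-Nd4, and 14 bases of mt-Nd5 and mt-Nd6, which run on opposite strands and are shown in the sense of mt-Nd5. The last line is the whole mt-Nd4l transcript of 297 bases, with the same overlap in capitals. Its first 294 bases are identical to the nuclear gene Gm10222.
mt-Atp8 and mt-Atp6: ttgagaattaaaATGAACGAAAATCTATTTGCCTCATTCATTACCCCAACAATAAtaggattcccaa
mt-Nd4l and mt-Nd4: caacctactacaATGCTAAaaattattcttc
mt-Nd5 and mt-Nd6: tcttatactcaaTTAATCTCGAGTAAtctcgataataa
mt-Nd4l: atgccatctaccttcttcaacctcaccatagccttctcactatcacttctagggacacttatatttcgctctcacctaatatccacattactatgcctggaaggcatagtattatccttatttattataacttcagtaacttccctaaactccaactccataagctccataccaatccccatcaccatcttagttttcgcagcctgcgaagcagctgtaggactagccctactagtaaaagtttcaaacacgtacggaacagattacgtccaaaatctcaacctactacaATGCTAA

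Nuclear copies of mitochondrial genes were a second source of uncertainty. In the GENCODE M21 transcripts, 17 nuclear genes matched 11 of the mitochondrial genes over at least 100 bases at 90% identity or more. Of these, 7 reached 99% identity, and all 7 lay on chromosome 1 and had values of their own in the table. Over the aligned stretch 5 of the 7 were identical to the mitochondrial gene: Gm10925 to mt-Atp6 (678 bases), Gm28661 to mt-Co2 (681 bases), Gm28437 to mt-Co3 (783 bases), Gm28439 to mt-Nd4 (876 bases) and Gm10222 to mt-Nd4l. The remaining 2 differed from the mitochondrial gene by 1 base. Gm29216 matched 483 bases of mt-Co1 with the substitution A1066T, and Gm28438 matched 345 bases of mt-Nd3 with the substitution T3C. Positions are counted from 1 at the 5′ end of the mitochondrial transcript, whose base comes first. The lines show both windows, with the base that differs in capitals.
mt-Co1: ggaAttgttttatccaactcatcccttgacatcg
Gm29216: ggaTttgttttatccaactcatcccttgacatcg
mt-Nd3: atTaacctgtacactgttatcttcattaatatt
Gm28438: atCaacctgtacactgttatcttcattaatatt

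Where the copy matched all or nearly all of a mitochondrial gene, both held values of a similar size in most libraries. Gm28437 held 47.0% to 49.996% of the sum of mt-Co3 and Gm28437 in the 15 libraries, with a median of 49.97%, so that both were nearly equal. For mt-Co2 the copy Gm28661 held 53.8% to 57.8% of the sum, and for mt-Atp6 the copy Gm10925 held 38.8% to 54.8%. The division was less even for short genes: the copy held 27.03% to 60.9% for mt-Nd3 and 20.5% to 90.5% for mt-Nd4l. The highest of these shares belonged to whole marrow replicate 2, in which mt-Nd4l stood at 10.1 and Gm10222 at 95.8 normalized counts. Copies that match only part of the gene held little, at most 2.74% for mt-Nd4 and at most 0.340% for mt-Co1. The deposited values of mt-Co2, mt-Co3, mt-Atp6, mt-Nd3 and mt-Nd4l are therefore uncertain as levels. With the copies added the numbers of genes called in the 3 comparisons were unchanged at 15, 2 and 6, and values are given with the copy for mt-Nd3 and mt-Nd4l, whose differences moved most.

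**Figure D1:**
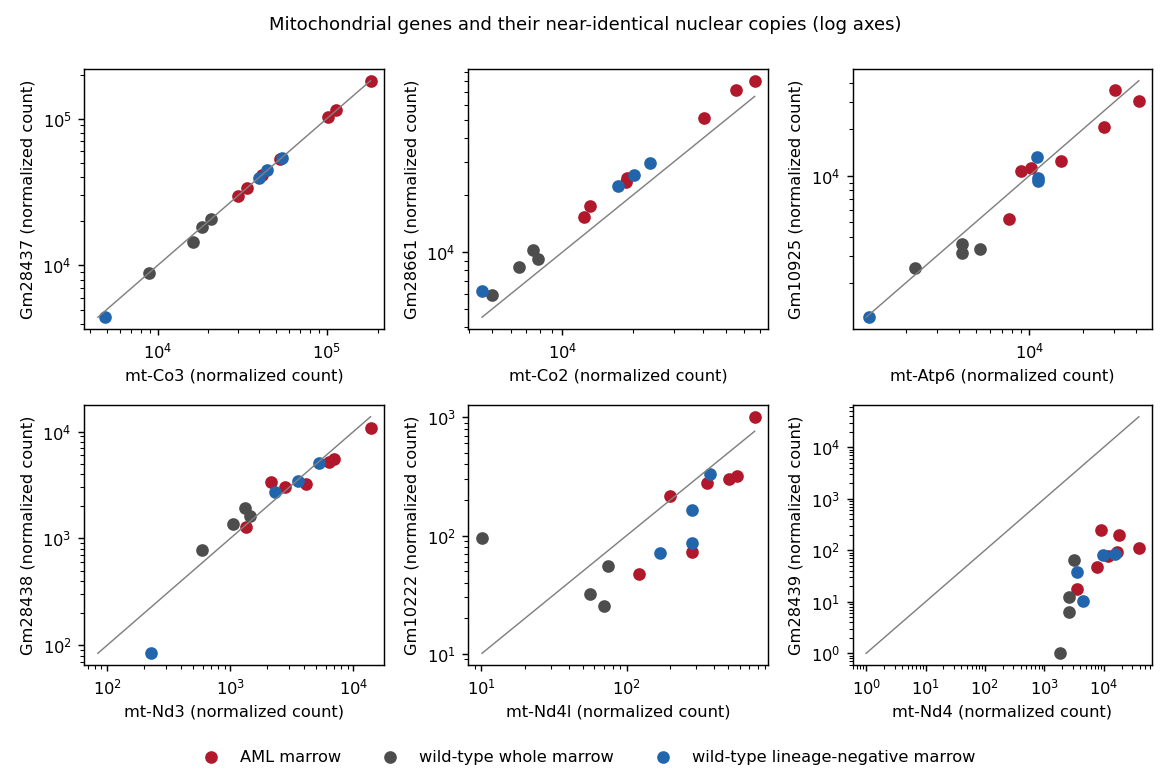
Each point is a library. The x axis is the normalized count of a mitochondrial gene and the y axis that of its near-identical nuclear gene, both on log axes, with the line of equal values in grey and the single y value under 1 drawn at 1. mt-Co3 and Gm28437 lie along the line, mt-Nd4l and Gm10222 scatter around it, and Gm28439 lies far under mt-Nd4.

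Values are normalized counts, that is, estimated reads per gene divided by the authors' size factor for the library. Estimated depth was 20.3 to 35.1 M reads in AML marrow, 11.4 to 17.2 M in whole marrow and 20.3 to 28.1 M in lineage-negative marrow. A count of 3 reads corresponded to 1.96 to 4.09 normalized counts, a floor for counting error only. The whole marrows had values above 0 for more genes: 7.12% to 15.7% of genes were at 0, against 23.6% to 41.4% in AML marrow and 35.7% to 41.0% in lineage-negative marrow. Olfactory and vomeronasal receptor genes, taken as a measure of background reads, averaged 6.31 to 11.9 normalized counts in whole marrow. They averaged 0.404 to 3.34 in AML marrow and 0.325 to 0.462 in lineage-negative marrow. Over all genes tested, the median log2 difference of AML from whole marrow was 0.67 with the deposited scaling and −0.06 after each value had been divided by its library's table total, so each comparison is given on both scales. Values divided by the total are called table CPM here, since they are scaled like counts per M reads. Progenitor markers (Kit, Cd34, Gata2 and Meis1) summed to 659 to 1027 table CPM in lineage-negative marrow, 104 to 111 in whole marrow and 61.6 to 215 in AML marrow. Red cell markers (Hba-a1, Hba-a2, Hbb-bs, Hbb-bt, Alas2 and Slc4a1) summed to 75110 to 110389 table CPM in whole marrow, 134 to 2205 in lineage-negative marrow and 13.3 to 1209 in AML marrow. Neutrophil markers (S100a8, S100a9, Camp, Ltf, Ngp, Mpo and Elane) summed to 13992 to 44821 table CPM in AML marrow, 36621 to 56691 in whole marrow and 4877 to 7300 in lineage-negative marrow. B cell markers (Cd79a, Cd79b, Ms4a1 and Ebf1) summed to 14.4 to 170.2, 222 to 306 and 16.4 to 26.2 in the same order, and T and NK cell markers (Cd3e, Cd3g, Cd8a and Ncr1) to 12.6 to 61.5, 14.0 to 19.2 and 3.11 to 6.80. None of these markers was at 0 throughout a group, and the part of these cells in the results was not tested.

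A pair of libraries stood apart in the balance of the classes. The ratio of summed mRNA to summed rRNA was 0.172 in lineage-negative replicate 1, against 0.560 to 0.639 in the other 3 lineage-negative marrows. In AML replicate 4 it was 0.206, against 0.378 to 0.537 in the other 6 AML marrows. Whole marrows lay between 0.408 and 0.583. The same pair had the highest share of small structural RNAs (7SK, signal recognition particle RNA, Rmrp, Rpph1 and Rn18s) of their groups, 11.3% of the table in lineage-negative replicate 1 and 32.9% in AML replicate 4. That share also differed between groups, at 16.4% ± 8.41 (SD, n = 7) in AML, 7.58% ± 0.943 (SD, n = 4) in whole and 6.62% ± 3.19 (SD, n = 4) in lineage-negative marrow. These RNAs are part of the table total that divides table CPM values, and their part in the results was not tested. Results without lineage-negative replicate 1 are given beside those it moved. Without AML replicate 4 the numbers of genes called higher were 15, 3 and 6 in AML against whole marrow, AML against lineage-negative marrow and lineage-negative against whole marrow, where they were 15, 2 and 6 with all libraries. The reagent used for rRNA removal is not given in the sources used here, so rRNA values are those left in the libraries.

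Mitochondrial RNA took a larger share of the AML libraries than of the whole-marrow libraries, and the AML marrows varied widely among themselves. The 15 genes together held 3.51%, 9.04%, 12.2%, 3.61%, 2.01%, 3.00% and 7.25% of the table total in AML replicates 1 to 7. In whole marrow they held 1.72%, 1.87%, 1.72% and 1.72%, and in lineage-negative marrow 1.71%, 3.99%, 3.94% and 4.08%. Each AML marrow was above each whole marrow, whereas the AML and lineage-negative ranges overlapped. Lineage-negative replicate 1 was level with whole marrow, and the other 3 lineage-negative marrows lay above all whole marrows.

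**Figure D2:**
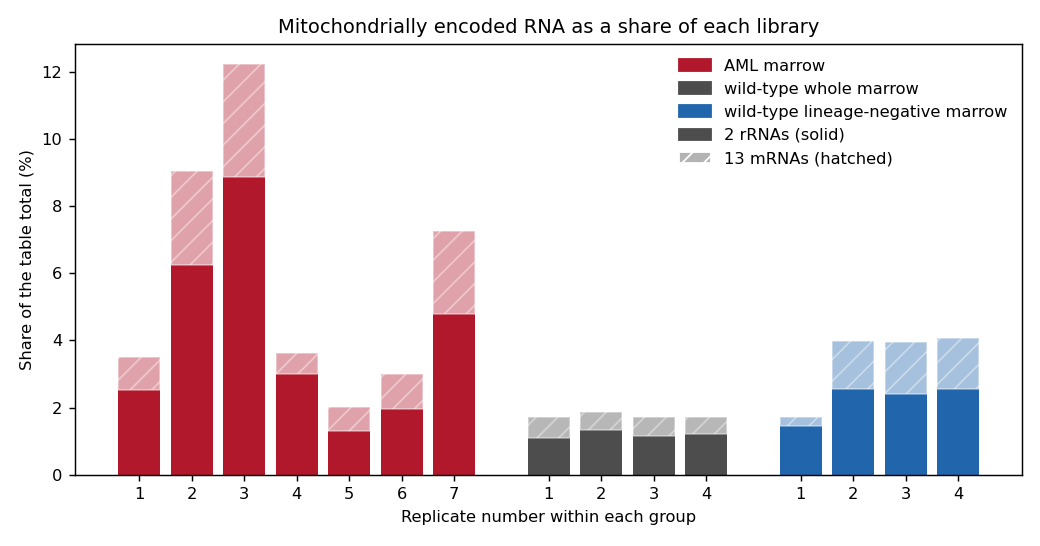
Bars give the share of the table total, in percent on an axis that starts at 0, for each library; the solid part is the 2 rRNAs and the hatched part the 13 mRNAs. AML marrows reach from 2.01% to 12.2%, and the 4 whole marrows lie between 1.72% and 1.87%.

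By class, the 2 rRNAs held 4.10% ± 2.70 (SD, n = 7) of the AML libraries, 1.19% ± 0.102 (SD, n = 4) of the whole-marrow libraries and 2.25% ± 0.530 (SD, n = 4) of the lineage-negative libraries. The 13 mRNAs held 1.71% ± 1.13 (SD, n = 7), 0.561% ± 0.0502 (SD, n = 4) and 1.18% ± 0.624 (SD, n = 4) of the same groups. Group means thus differed 3.43-fold for rRNA and 3.04-fold for mRNA between AML and whole marrow. The ratios were 1.82 and 1.44 between AML and lineage-negative marrow, and 1.88 and 2.11 between lineage-negative and whole marrow. Without lineage-negative replicate 1 the mRNA ratios became 1.14 and 2.66. These mRNA shares were taken without the nuclear copies. With the copies added, mean mRNA shares were 2.25% in AML, 0.737% in whole and 1.54% in lineage-negative marrow. Lowest class shares of AML marrow, 1.31% for rRNA in replicate 5 and 0.616% for mRNA in replicate 4, lay within the whole-marrow ranges of 1.08% to 1.33% and 0.514% to 0.631%. With the copies added, the lowest AML mRNA share was 0.819%, just above the highest whole-marrow share of 0.809%. Haemoglobin genes took 7.24% to 10.6% of whole marrow and at most 0.203% of any other library. With haemoglobin left out of the total, rRNA held 1.31% ± 0.111 (SD, n = 4) of whole marrow and 4.10% ± 2.71 (SD, n = 7) of AML marrow, so the difference in class shares was nearly as large. With the total limited to protein-coding genes and mitochondrial RNAs, rRNA held 1.37% ± 0.121 (SD, n = 4) of whole marrow and 5.34% ± 3.46 (SD, n = 7) of AML marrow. For mRNA these means were 0.645% and 2.18%.

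The range within AML marrow was itself large. In table CPM, mt-Rnr2 spanned 6.73-fold between the highest and the lowest AML marrow, mt-Co1 6.02-fold and mt-Nd3 11.5-fold. In whole marrow the same genes spanned 1.203-fold, 1.28-fold and 1.38-fold. Lineage-negative marrow spanned 2.21-fold, 6.21-fold and 23.9-fold, with replicate 1 the lowest for all 3 genes. AML replicates 2, 3 and 7 were the highest 3 AML marrows for both rRNA and mRNA shares, and replicates 4 and 5 the lowest pair for mRNA.

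**Figure D3:**
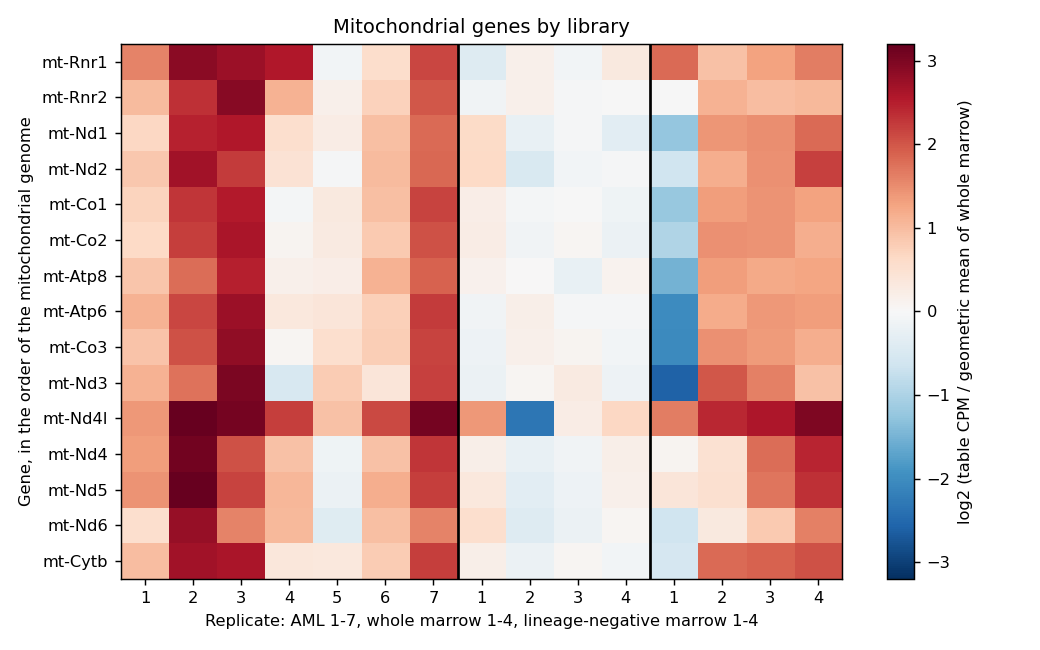
Colour gives the log2 ratio of each gene's table CPM to its geometric mean in whole marrow, for the 15 genes in genome order and the 15 libraries. AML replicates 2, 3 and 7 are red for every gene, and lineage-negative replicate 1 is blue for most mRNAs while its mt-Rnr1 is red.

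Levels of different genes were compared per kilobase of transcript. On this scale mt-Rnr2 ranked first in all 15 libraries, with a median of 256592 normalized counts per kilobase. mt-Co1 ranked 2 or 3 (median 82555), mt-Rnr1 2 to 4 (median 51651) and mt-Co3 3 to 5 (median 50711), so these neighbours exchanged places between libraries. mt-Co2 followed at 4 or 5 (median 25235). Further down, mt-Nd1 (16244), mt-Atp6 (14909), mt-Atp8 (10520), mt-Cytb (10049), mt-Nd3 (6577), mt-Nd4 (5509), mt-Nd5 (4290) and mt-Nd2 (3502) had medians per kilobase between these and the lowest pair, with ranks that overlapped. The lowest pair in every library was mt-Nd6 (1372) and mt-Nd4l (950.4), at ranks 14 and 15. mt-Nd4l and mt-Nd4 lie on a shared mRNA, as do mt-Atp8 and mt-Atp6. Their levels are therefore those of reads assigned to each gene, not of separate transcripts. Why the levels differed within these pairs was not tested. The order among the abundant mRNAs depended on the nuclear copies. With the copies added, the median per kilobase was 101382 for mt-Co3, above mt-Co1 (82608), and 57872 for mt-Co2, above mt-Rnr1, while mt-Atp6 rose to 30029 and mt-Nd3 to 15808. mt-Rnr2 still ranked first in every library, and mt-Nd6 and mt-Nd4l last.

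In AML against whole marrow all 15 mitochondrial genes were called higher with the deposited scaling (limma on log2 of the normalized count plus 1, Benjamini-Hochberg adjusted p under 0.05 over 18941 genes and a log2 difference of at least 1). Of all genes tested, 27.3% were called higher. The log2 differences of the 15 genes ran from 1.90 to 3.01 with a median of 2.08, against a median of 0.67 over all genes. In 13 of the 15 each AML marrow was above each whole marrow with that scaling, as in 35.8% of all genes. In table CPM 6 of the 15 were called higher, when 4.2% of all genes were, and none lower. They were mt-Rnr1, mt-Rnr2, mt-Nd4, mt-Nd5, mt-Nd4l and mt-Cytb, and the median log2 difference of the 15 was 1.33, against −0.06 over all genes. With scaling by the trimmed mean of M values (TMM) 10 of the 15 were called, against 4.73% of all genes. Each AML marrow was above each whole marrow in only 4 of the 15 in table CPM and in 2 with TMM. The share of all genes apart on these scales is not given.

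Of the ribosomal RNAs, mt-Rnr1 stood at 8767, 24574, 19228 and 25119 normalized counts in whole marrow and between 26003 and 242332 in AML marrow, with a median of 117532. All AML values lay above all whole-marrow values, the lowest (replicate 5) only just, and in table CPM that library, at 1068, lay within the whole-marrow range of 858 to 1406. The log2 difference was 2.52 ± 0.52 (SE; limma adjusted p = 0.000424). For mt-Rnr2 the table CPM values were 9982, 12004, 10532 and 10650 in whole marrow and 12043 to 81034 in AML marrow, with a median of 23330. On that scale the groups did not overlap, the nearest values being almost equal. Its log2 difference was 2.21 ± 0.59 (SE; limma adjusted p = 0.00311) with the deposited scaling and 1.47 ± 0.54 (SE; limma adjusted p = 0.0456) in table CPM.

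Among complex IV genes, mt-Co1, the catalytic subunit, stood at 33613, 52484, 50267 and 45881 normalized counts in whole marrow and between 80461 and 429580 in AML marrow, with a median of 138486. The groups were apart by 27977 normalized counts at their nearest. In table CPM the lowest AML value, 2713, lay within the whole-marrow range of 2568 to 3289. The log2 difference was 2.02 ± 0.54 (SE; limma adjusted p = 0.0033), but in table CPM it was 1.27 and not called (limma adjusted p = 0.0843), and with TMM it was not called either. The other core subunits had log2 differences of 1.99 (mt-Co2) and 2.08 (mt-Co3) with the deposited scaling, and 1.24 and 1.33, not called, in table CPM.

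For complex III, mt-Cytb stood at 3078, 4463, 4950 and 4435 normalized counts in whole marrow and between 8019 and 49373 in AML marrow, with a median of 15206. The groups did not overlap on any of the 3 scales. The log2 difference was 2.18 ± 0.49 (SE; limma adjusted p = 0.000836), and 1.43 in table CPM (limma adjusted p = 0.0376).

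Complex I subunit genes were the most varied. mt-Nd4l stood at 69.98, 10.1, 55.6 and 74.2 normalized counts in whole marrow and between 122 and 761 in AML marrow, with a median of 359. No AML marrow was as low as any whole marrow with the deposited scaling, but in table CPM only 5 of 7 AML marrows were above all whole marrows. Its log2 difference of 3.01 ± 0.49 (SE; limma adjusted p = 5.28e-05) was the highest of the 15 genes as deposited. It was 2.36 without whole marrow replicate 2, and 2.46 (limma adjusted p = 0.000103) with its nuclear copy added, and in both settings mt-Rnr1 was higher, at 2.67 and 2.52. The other complex I genes on the plus strand differed by 2.06 (mt-Nd1), 2.04 (mt-Nd2), 1.99 (mt-Nd3), 2.25 (mt-Nd4) and 2.33 (mt-Nd5) on the log2 scale. Of these 5, mt-Nd4 and mt-Nd5 were also called in table CPM, at 1.5 and 1.58. mt-Nd3 was the least certain: 1 AML value lay within the whole-marrow range of 591 to 1438 normalized counts, and without whole marrow replicate 1 its limma adjusted p rose to 0.073. With its copy added its log2 difference was 1.75 (limma adjusted p = 0.0337).

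The minus-strand gene mt-Nd6 stood at 327, 320, 349 and 415 normalized counts in whole marrow and between 412 and 4429 in AML marrow, with a median of 1346. Only AML replicate 5 fell inside the whole-marrow range with the deposited scaling, and in table CPM 5 of 7 AML marrows were above all whole marrows. The log2 difference, 1.90 ± 0.44 (SE; limma adjusted p = 0.000956), was the lowest of the 15 as deposited. mt-Nd3 was lower with its copy added, at 1.75, and without whole marrow replicate 1, at 1.72 against 1.87 for mt-Nd6. Of the ATP synthase genes, mt-Atp8 differed by 1.96 and mt-Atp6 by 2.13 on the log2 scale, and neither was called in table CPM (1.22 and 1.39).

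**Figure D4:**
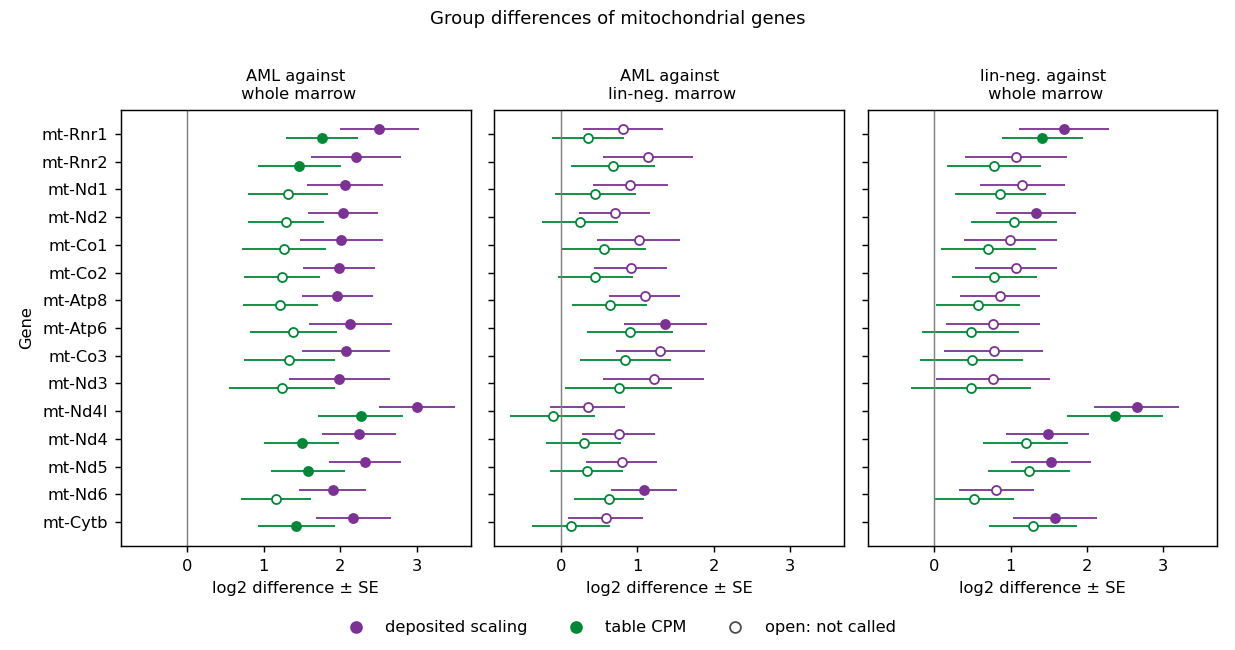
Points give the log2 difference between groups and bars its standard error from limma, for each gene on the deposited scaling (purple) and in table CPM (green), in 3 panels. Filled points were called; AML against whole marrow has 15 filled purple and 6 filled green points, and AML against lineage-negative marrow 2 and 0.

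Against lineage-negative marrow, few mitochondrial genes were called in AML. With the deposited scaling 2 of the 15 were called higher, near the 17.7% of all genes, and none lower. Standard errors ran from 0.44 (mt-Nd6) to 0.66 (mt-Nd3), so genes not called cannot be taken as unchanged. All 15 log2 differences were positive, between 0.35 (mt-Nd4l; 0.48 with its copy) and 1.37 (mt-Atp6) with a median of 0.91, against 0.02 over all genes, but mt-Nd4l turned negative in table CPM, and mt-Rnr1, mt-Rnr2 and mt-Co1 after quantile normalization. In table CPM none was called, when 12.5% of all genes were called higher, and none had an unadjusted limma p under 0.05. The median log2 difference on that scale was 0.46, against −0.42 over all genes. In none of the 15 genes were the groups apart on either scale. With the deposited scaling that was so in 17% of all genes in the higher direction. With TMM 1 gene, mt-Atp6, was called, when 17.6% of all genes were.

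The 2 genes called were mt-Atp6 and mt-Nd6. mt-Atp6 stood at 1244, 11116, 11216 and 11009 normalized counts in lineage-negative marrow and between 7649 and 41480 in AML marrow, with a median of 15119. Lineage-negative replicate 1 was the only one under all AML values, and 4 of 7 AML marrows were above all lineage-negative marrows. The log2 difference was 1.37 ± 0.55 (SE; limma adjusted p = 0.0471). mt-Nd6 stood at 297, 555, 712 and 1230 in lineage-negative marrow, again with 4 of 7 AML marrows above them all, and differed by 1.09 ± 0.44 (SE; limma adjusted p = 0.0474). Both calls were lost without lineage-negative replicate 1, where mt-Atp6 differed by 0.58 (limma adjusted p = 0.305) and mt-Nd6 by 0.74 (limma adjusted p = 0.202). They were also lost without AML replicate 2, 3 or 7 and without any 1 of the whole marrows, which share the estimate of the spread. The remaining log2 differences with the deposited scaling were 0.81 (mt-Rnr1), 1.15 (mt-Rnr2), 0.91 (mt-Nd1), 0.71 (mt-Nd2), 1.22 (mt-Nd3), 0.76 (mt-Nd4), 0.80 (mt-Nd5), 0.59 (mt-Cytb), 1.02 (mt-Co1), 0.91 (mt-Co2), 1.30 (mt-Co3) and 1.10 (mt-Atp8), none of them called. Without lineage-negative replicate 1 the 15 log2 differences ran from 0.0176 (mt-Cytb) to 0.98 (mt-Rnr1) with a median of 0.43. mt-Nd3 (0.23), mt-Nd1 (0.25), mt-Co1 (0.42), mt-Atp8 (0.45) and mt-Co3 (0.50) moved by over 1.5-fold.

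Between the wild-type marrows 6 of the 15 genes were called higher in lineage-negative marrow with the deposited scaling, when 33.1% of all genes were, and none lower. They were mt-Rnr1 (log2 difference 1.70), mt-Nd2 (1.33), mt-Nd4 (1.49), mt-Nd5 (1.53), mt-Nd4l (2.65) and mt-Cytb (1.58). The median of the 15 was 1.07, against 0.59 over all genes. In table CPM 2 of the 15 were called, mt-Rnr1 and mt-Nd4l, when 22.9% of all genes were called higher. With the deposited scaling the groups were apart in 4 of the 15, when 41.1% of all genes were in the higher direction. In table CPM they were apart in 3 and with TMM in 2. With TMM only mt-Nd4l was called, against 11% of all genes, and the median of the 15 was 0.37.

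Most of these values turned on lineage-negative replicate 1. mt-Cytb stood at 3790 normalized counts in that library and at 18828, 17358 and 19684 in the other 3, against 3078 to 4950 in whole marrow. mt-Co1 was likewise at 25729 in replicate 1 and at 144816, 135931 and 127548 in the others. By contrast mt-Rnr1 was highest in replicate 1, at 83843, against 43901, 49327 and 64546. Replicate 1 was thus at or under the whole-marrow level for these mRNAs and above it for the small-subunit rRNA. Without it 14 of the 15 genes were called higher, all but mt-Rnr2, whose log2 difference was 1.30 (limma adjusted p = 0.12). mt-Cytb then differed by 2.16 (limma adjusted p = 0.00109) and mt-Nd3 by 1.75 (limma adjusted p = 0.0115), where with all libraries mt-Nd3 differed by 0.77 (limma adjusted p = 0.378), and by 0.45 (limma adjusted p = 0.631) with its copy added. The median of the 15 without that library was 1.61, and mt-Atp6 (1.55), mt-Atp8 (1.51), mt-Co1 (1.598), mt-Co3 (1.58) and mt-Nd1 (1.81) moved by over 1.5-fold. Without lineage-negative replicate 4 there were 2 calls, and without whole marrow replicate 1, the library with the lowest table total, there was 1.

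mt-Nd4l was called in each of these settings. It stood at 171, 284, 282 and 377 normalized counts in lineage-negative marrow, all above the whole-marrow values of 10.1 to 74.2. The log2 difference was 2.65 ± 0.56 (SE; limma adjusted p = 0.000382), and 1.98 (limma adjusted p = 0.00168) with its nuclear copy added, and 2.003 without whole marrow replicate 2. The genes not called differed by 1.07 (mt-Rnr2), 1.15 (mt-Nd1), 0.77 (mt-Nd3), 0.81 (mt-Nd6), 1.00 (mt-Co1), 1.07 (mt-Co2), 0.78 (mt-Co3), 0.86 (mt-Atp8) and 0.77 (mt-Atp6) on the log2 scale.

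Ratios between pairs of mitochondrial genes do not depend on how libraries were scaled. In all, 5 such ratios were compared in 3 comparisons by two-sided exact permutation tests on log2 ratios, and the 15 p-values were adjusted together. None had an adjusted p under 0.05. The smallest p these tests can give is 0.00303 for 7 against 4 marrows and 0.0286 for 4 against 4. With 15 p-values adjusted together, 0.0286 can pass only if most of the 15 are as small.

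The ratio of mt-Nd6 to mt-Nd5, neighbours on opposite strands, was 0.181, 0.150, 0.153 and 0.148 in whole marrow. In lineage-negative marrow it was 0.0768, 0.135, 0.0870 and 0.0946, and in AML marrow 0.0844 to 0.156 with a median of 0.117. All lineage-negative values lay under all whole-marrow values, and 6 of 7 AML values did. On the log2 scale the difference from whole marrow was −0.71 for lineage-negative marrow (exact permutation p = 0.0286, the smallest possible; adjusted p = 0.25) and −0.42 for AML marrow (exact permutation p = 0.0333; adjusted p = 0.25). Neither passed the correction. For lineage-negative against whole marrow this ratio could not have passed on its own, even with the groups fully apart. The AML and lineage-negative ratios differed by 0.29 on the log2 scale (exact permutation p = 0.17; adjusted p = 0.429).

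The ratio of the rRNAs, mt-Rnr1 to mt-Rnr2, was 0.106 ± 0.0192 (SD, n = 4) in whole marrow. It was 0.141 ± 0.0694 (SD, n = 7) for AML and 0.189 ± 0.127 (SD, n = 4) for lineage-negative marrow. Its highest values were 0.376 in lineage-negative replicate 1 and 0.285 in AML replicate 4, the libraries with the lowest ratio of mRNA to rRNA. The ratio of mt-Co1 to mt-Rnr2 was lowest in the same libraries, at 0.115 and 0.116, and lay between 0.202 and 0.357 in the other 13. For mt-Atp8 to mt-Atp6 and mt-Nd4l to mt-Nd4, pairs that each share an mRNA and overlap in the genome, the groups overlapped as well. Their ranges over all libraries were 0.171 to 0.310 and 0.00392 to 0.0631, and with the nuclear copies added 0.0778 to 0.158 and 0.0337 to 0.0823. For these 4 ratios the exact permutation p ran from 0.142 to 0.943.

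**Figure D5:**
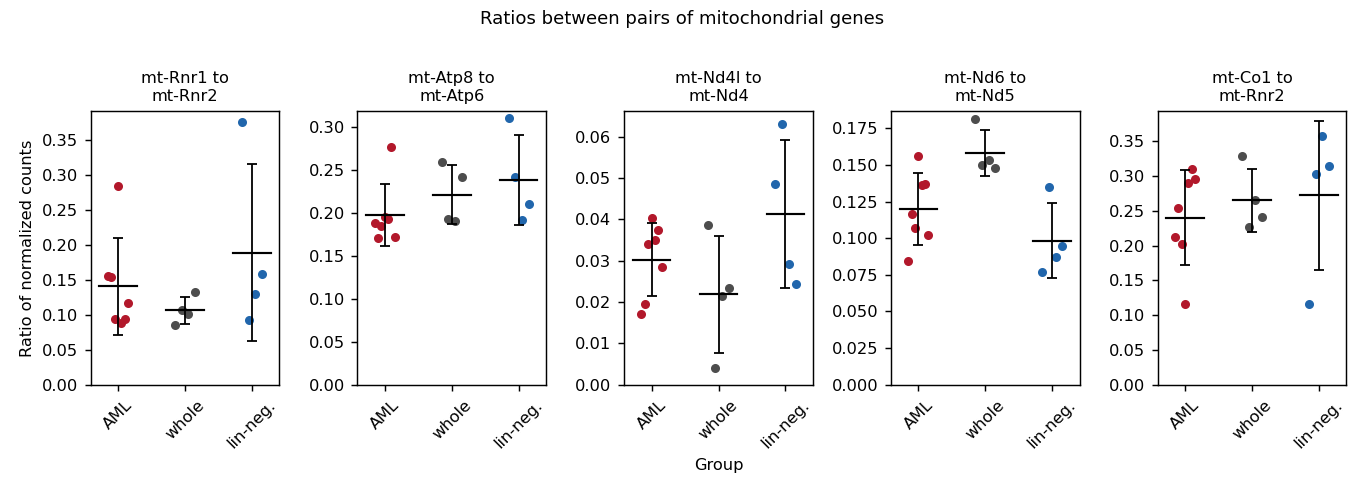
Points are libraries, and the line and bars give the group mean and SD, for 5 ratios of normalized counts on linear axes that start at 0. For mt-Nd6 to mt-Nd5 the 4 whole marrows, at 0.148 to 0.181, lie above all lineage-negative marrows and all but 1 AML marrow.

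In the make-up of the mRNA pool the ranges of the 3 groups overlapped for most genes, and no difference was tested. The nuclear copies were left out of the mRNA sum, and shares with the copies added were not computed. Shares are therefore uncertain as levels, since copies of several mRNAs held values of a similar size. Of the sum of the 13 mRNAs, mt-Co1 held 44.0% to 52.8% in AML marrow, 49.9% to 52.1% in whole marrow and 45.8% to 49.6% in lineage-negative marrow. The whole-marrow range of mt-Co1 thus lay above its lineage-negative range. The share of mt-Co3 was 14.1% to 20.6% in AML marrow, 13.7% to 19.9% in whole marrow and 9.27% to 18.6% in lineage-negative marrow. A difference chosen after its values were seen, and therefore not tested, was that of mt-Cytb. It held 6.32% to 7.18% of the mRNA sum in lineage-negative marrow, 4.38% to 6.09% in AML marrow and 4.28% to 4.93% in whole marrow. The lineage-negative values, replicate 1 included, lay above all others.

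Nuclear genes that maintain, transcribe, process and translate the mitochondrial genome were described in 5 lists, and all listed genes were tested. With the deposited scaling, AML marrow lay between whole and lineage-negative marrow for each list's median. Of all genes tested, 11.3% were called lower in AML when set against whole marrow and 12.5% when set against lineage-negative marrow, and 17.2% were lower in lineage-negative than in whole marrow. In table CPM these shares were 16.3%, 24.5% and 19.7%. The shares called higher, 27.3%, 17.7% and 33.1% in the same order with the deposited scaling and 4.2%, 12.5% and 22.9% in table CPM, are those against which the counts of higher genes are read. The list for mitochondrial DNA replication and transcription held 24 genes, of which 8 were called higher, near the share over all genes, and 1 lower in AML than in whole marrow. Against lineage-negative marrow 5 were called lower in AML and none higher. In lineage-negative against whole marrow 13 were called higher and 1 lower. The medians of the list's log2 differences were 0.85, −0.43 and 1.196 in these comparisons, against 0.67, 0.02 and 0.59 over all genes. In table CPM the counts were 0 higher and 1 lower, 0 higher and 10 lower, and 12 higher and 1 lower, so the calls of higher genes in AML were not kept on that scale.

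Tfam, which packages mitochondrial DNA and starts its transcription, stood at 696 ± 92.0 (SD, n = 7) normalized counts for AML, 389 ± 128 (SD, n = 4) in whole and 1110 ± 189 (SD, n = 4) in lineage-negative marrow. Its log2 difference was called between the wild-type groups (1.57) and not between AML and either (0.90 and −0.67), but in table CPM Tfam was called lower in AML than in lineage-negative marrow (−1.12; limma adjusted p = 7.16e-06). Polrmt, the mitochondrial RNA polymerase, stood at 482 ± 66.3 (SD, n = 7), 204 ± 41.1 (SD, n = 4) and 926 ± 207 (SD, n = 4) in the same order. It was called higher in AML than in whole marrow (1.25), and in table CPM the difference was 0.51 and not called. Against lineage-negative marrow it was not called (−0.93), but in table CPM it was called lower in AML (−1.39; limma adjusted p = 1.47e-07). Between the wild-type groups Polrmt was called higher in lineage-negative marrow (2.18). Ppargc1a, a coactivator of mitochondrial biogenesis, was at 4.66 ± 4.93 (SD, n = 7) in AML and 23.2 ± 9.10 (SD, n = 4) in whole marrow and was called lower (log2 difference −2.38; −3.01 in table CPM). The AML mean was near the value of 3 reads, 2.54 to 3.82 in these libraries, so the size of the fold is uncertain. The background measure was 6.31 to 11.9 in whole and 0.404 to 3.34 in AML marrow, and its part in this difference was not tested. In lineage-negative marrow the mean of Ppargc1a was 1.82, under the value of 3 reads, so no fold is given. Polg2, the accessory subunit of the mitochondrial DNA polymerase, and Rnaseh1, which degrades RNA in RNA-DNA hybrids, were called higher in AML than in whole marrow (1.45 and 1.39). Top1mt, a topoisomerase, Twnk, the replicative helicase, and Pprc1, a transcriptional coactivator, were called lower in AML than in lineage-negative marrow (−1.73, −1.51 and −1.48). Between the wild-type groups Top1mt, Pprc1 and Ppargc1b, also a coactivator, had the largest calls of higher genes (2.90, 2.72 and 2.45), and Ppargc1a was called lower.

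Of 32 genes for mitochondrial RNA processing, 9 were called higher in AML than in whole marrow, 9 lower than in lineage-negative marrow, and 29 higher in lineage-negative than in whole marrow. The first count was near the share of all genes called higher. In table CPM the counts were 0, 19 and 21, and no gene was called in the opposite direction on either scale. Lrpprc, which stabilizes mitochondrial mRNAs, stood at 1318 ± 162 (SD, n = 7) normalized counts for AML, 854 ± 233 (SD, n = 4) in whole and 2996 ± 354 (SD, n = 4) in lineage-negative marrow. It was called lower in AML than in lineage-negative marrow (−1.19) and did not pass against whole marrow (0.66, and −0.08 in table CPM). The largest calls of AML above whole marrow were Ddx28 (1.39), an RNA helicase, Rexo2 (1.30), an oligoribonuclease, and Rpusd4 (1.27), a pseudouridine synthase. Those of AML under lineage-negative marrow were Fastkd2 (−1.53), an RNA-binding protein, Prorp (−1.49), the nuclease of mitochondrial RNase P, and Mrm3 (−1.48), an rRNA methyltransferase. Between the wild-type groups they were Mrm3 (2.41), Elac2 (2.25), which cuts tRNA 3′ ends, and Fastkd1 (2.21).

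The list for charging and modifying mitochondrial tRNAs held 32 genes. In AML against whole marrow 16 were called higher, when 27.3% of all genes were, with Lars2 (2.09), the leucyl-tRNA synthetase, Trit1 (1.98) and Trmu (1.40), both tRNA modifiers, the largest. Lars2 varied widely within groups, at 12084 ± 11543 (SD, n = 7) normalized counts in AML and 6721 ± 6839 (SD, n = 4) in lineage-negative marrow, against 2093 ± 355 (SD, n = 4) in whole marrow. The search for nuclear copies covered only matches of at least 100 bases. Whether a shorter match brings mitochondrial reads to Lars2 was not tested. In table CPM 1 gene, Trit1, was called higher. Against lineage-negative marrow 10 were called lower in AML, led by Pus1 (−1.37), Aars2 (−1.31) and Tars2 (−1.29), and 20 in table CPM. In lineage-negative against whole marrow 29 were called higher, led by Pus1 (2.57), Ears2 (2.53) and Vars2 (2.47), and 28 in table CPM. Pus1 makes pseudouridine in tRNA, and the other genes of both trios are aminoacyl-tRNA synthetases.

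Proteins of the mitochondrial ribosome, the partners of mt-Rnr1 and mt-Rnr2, were encoded by 78 listed genes. In AML against whole marrow 30 were called higher, when 27.3% of all genes were, with Mrpl52 (1.96), Mrpl4 (1.49) and Mrpl12 (1.34) the largest, and in table CPM 1 was. In AML against lineage-negative marrow 9 were called lower, near the 12.5% over all genes, among them Mrps5 (−1.48), Mrps28 (−1.25) and Mrpl12 (−1.20), and 38 in table CPM. In lineage-negative against whole marrow 65 were called higher, when 33.1% of all genes were, with Mrpl12 (2.55), Mrps27 (2.38) and Mrpl52 (2.27) the largest, and 48 in table CPM. In all 3 comparisons no call went the other way on either scale. The list's median log2 differences with the deposited scaling were 0.92, −0.53 and 1.39.

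Translation factors of the organelle followed the same order. Of 10 genes, 3 were called higher in AML than in whole marrow, 3 lower than in lineage-negative marrow and 9 higher in lineage-negative than in whole marrow. In table CPM these counts were 0, 5 and 8, and the first count was near the 27.3% of all genes with the deposited scaling. Tsfm, an elongation factor, was called in all 3 comparisons with the deposited scaling (1.38, −1.01 and 2.39; 0.63 and not called against whole marrow in table CPM), and stood at 302 ± 66.2 (SD, n = 7) normalized counts for AML, 117 ± 32.7 (SD, n = 4) in whole and 598 ± 71.0 (SD, n = 4) in lineage-negative marrow. Tufm, the elongation factor that brings tRNAs to the ribosome, and Mrrf, a recycling factor, were called lower in AML than in lineage-negative marrow (−1.17 and −1.22). Tufm and the initiation factor Mtif2 were called higher in lineage-negative than in whole marrow (2.03 and 1.88).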

How the data were processed

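The authors deposited 1 table of normalized counts for all 15 libraries, with the unit signal: estimated reads per gene divided by a DESeq2 size factor, of the type named poscounts per the file headers. STAR, Partek, DESeq2 and the build mm10 are named in the submitters' processing notes, without versions. The library kit was TruSeq Stranded Total RNA, per the labels. The strand setting of counting is not given in the sources used here, so overlapping genes on opposite strands may share reads. Low values were whole multiples of 1 step (tolerance 0.02) for 82.2% to 87.1% of genes, so depth was estimated and whole reads were not recovered; count models were not used.

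Genes with at least 10 normalized counts in at least 4 samples were kept, 18941 of 38315. Log2 values with a pseudocount of 1 entered 1 limma fit of 3 group means (limma 3.58.1, R 4.3.3, mean-variance trend, two-sided), which was also run on table CPM (values divided by the table total) and with TMM. Fold changes are on the log2(value + 1) scale. The fit was tested on simulated data. All mitochondrial genes are named. From the nuclear lists the text names up to 3 called genes with the largest differences per comparison, and Tfam, Polrmt, Lrpprc and Ppargc1a. The members and lists were chosen with earlier results of these data known. From the red cell and the B cell marker lists 1 gene each is not reported here. Sequences were read from GENCODE M21 transcripts. Nuclear coordinates are not given, since only 846 of 38051 nuclear genes had the annotated start.

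Alternatives were pseudocounts of 0.1 and 5, other filters and scalings, a fit of 2 groups, robust variance, a replicate block, other denominators for shares, and leaving out libraries. Adding nuclear copies and leaving out lineage-negative replicate 1 with AML replicate 4 were chosen after seeing the data.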

Additional observations from a re-analysis of the deposited data

Results flagged for a closer look

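Of 69 groups of 4 or 7 libraries examined for 23 results, 12 held a library with a gap to the rest beyond the 95% critical value of Dixon's test, where chance gives about 1 in 20 for a single group. The 69 groups share the same 15 libraries and are not independent, so their number cannot be set against that rate. Values were examined without a log transformation. Lineage-negative replicate 1 was the low library in 6 of the 12. Its mt-Co1 was at 25729 normalized counts, against 127548 to 144816 in the other 3 lineage-negative marrows, its mt-Atp6 at 1244, against 11009 to 11216, and its mt-Cytb at 3790, against 17358 to 19684. Its rRNA share of the table was 1.46%, its mRNA share 0.251% and its ratio of mRNA to rRNA 0.172.

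AML replicate 2 was the high library for 3 complex I genes that follow one another in the genome: mt-Nd4 at 38892 normalized counts, mt-Nd5 at 38014 and mt-Nd6 at 4429, against 3490 to 17952, 3019 to 16358 and 412 to 1746 in the other AML marrows. The ratio of mt-Rnr1 to mt-Rnr2 was 0.285 in AML replicate 4, against 0.0887 to 0.155. AML replicate 6 had a ratio of mt-Atp8 to mt-Atp6 of 0.276, against 0.171 to 0.195. With the nuclear copy of mt-Atp6 added, that ratio was 0.131, against 0.0778 to 0.114, and was no longer beyond the critical value, and neither was mt-Atp6 in lineage-negative replicate 1, at 2439 against 20449 to 24267. Whole marrow replicate 1 had a ratio of mt-Nd6 to mt-Nd5 of 0.181, against 0.148 to 0.153.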

How the results depend on the processing

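In AML against whole marrow 395 of 420 gene-level values kept their direction and their side of the threshold and 25 lost the call; the number called was 6 in table CPM and 6 after quantile normalization, and 14 to 15 when single libraries were left out. In AML against lineage-negative marrow the number called higher was 2, and it became 0 with a pseudocount of 0.1, with all genes tested, in table CPM, after quantile normalization, with 2 groups alone and without lineage-negative replicate 1 and AML replicate 4 together, 1 with TMM and with robust variance, 6 without AML replicates 5 and 6 together, and 7 with the replicate number as a block. Leaving out single libraries gave 0 to 4: 0 without AML replicates 2, 3 or 7, any whole marrow or lineage-negative replicate 1, 1 without AML replicate 1 or 6 or lineage-negative replicate 3, and 4 without AML replicate 5 or lineage-negative replicate 2. In lineage-negative against whole marrow the number called was 6, and 1 with TMM, 2 in table CPM, 3 after quantile normalization and 13 without lineage-negative replicate 1 and AML replicate 4; single libraries gave 1 to 14. Of 420 gene-level values each, 361 and 372 in the latter comparisons kept their direction and side of the threshold. No mitochondrial gene was called lower in any setting run.

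In AML against lineage-negative marrow the log2 difference changed sign for mt-Nd4l in table CPM (−0.10) and, after quantile normalization, for mt-Co1 (−0.00147), mt-Rnr1 (−0.205) and mt-Rnr2 (−0.36). Leaving out single libraries moved the log2 differences of 4 ratios through 0: −0.61 to 0.0664 for mt-Rnr1 to mt-Rnr2 and −0.50 to 0.0464 for mt-Co1 to mt-Rnr2 in AML against lineage-negative marrow, and −0.0394 to 0.19 for mt-Atp8 to mt-Atp6 and −0.24 to 0.30 for mt-Co1 to mt-Rnr2 in lineage-negative against whole marrow. Both of the latter were −0.0394 and 0.30 without lineage-negative replicate 1 and AML replicate 4. Apart from fewer samples or genes, the cause of these changes was not tested. Replicate numbers were not taken to pair the samples, since nothing states that they do. The correlation of same-numbered libraries' deviations ran from −0.288 to 0.171. Libraries of different numbers were not examined beside them, so these values cannot decide whether samples were paired. With the replicate block the numbers called higher were 15, 7 and 7 in the 3 comparisons. Depth sets a floor of 1.96 to 4.09 normalized counts, the value of 3 reads, and the lowest value of any mitochondrial gene was 10.1.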
